A study of Mus musculus with 12 samples.

Results

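The genes described here are Mt1 and Mt2, which encode metallothioneins 1 and 2, and Mtf1, which encodes metal regulatory transcription factor 1. They are 3 of the 12975 genes in the count table and were chosen by name and by their levels across the groups of these libraries, so their own values are given as a description and without a test. Metallothioneins are small, cysteine-rich proteins that bind zinc and copper in the cytoplasm, buffer free zinc and react with oxidants. Free zinc binds the zinc fingers of MTF1, which then occupies metal response elements (MREs) in the Mt1 and Mt2 promoters and raises their transcription, while glucocorticoids and the IL-6 to STAT3 pathway are known as further inducers of both genes. In the nervous system metallothioneins are typical of astrocytes and other glia, and Mt3 is the family member known mainly from brain.

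RNA was measured in 12 libraries from 6 PLPCreERT2 Rpl22HA mice (Rpl22tm1.1Psam allele), in which a Cre that tamoxifen activates makes enteric glial cells (EGCs) carry an HA tag on the ribosomal protein Rpl22. All mice, controls included, received 2 intraperitoneal injections of 100 µl tamoxifen at 15 mg/ml at 10 to 12 weeks of age, and tissue was taken 3 to 4 weeks after the first. The 3 mice of the T0 groups (numbered 1, 2 and 4) were naive, and the 3 of the T3 groups (numbered 1, 3 and 4) were killed 3 h after injury of the gut wall by surgical manipulation of the small intestine, so the T0 animals also lacked the operation itself. The muscle layers of the small intestine with their myenteric plexus were homogenised, and the lysate of each mouse was divided between an anti-HA antibody (HA T0 and HA T3, ribosome-bound RNA of tagged cells) and an isotype control (IgG T0 and IgG T3, RNA that the beads retain without the tag), with n = 3 in each of the 4 groups.

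Depth differed between the groups. Library totals were 1221788 to 2870591 unique molecular identifier (UMI) counts with HA and 88136 to 1289833 with IgG, so a gene without a count could hold up to 1.05 CPM (counts scaled to a fixed library total) in the library with most counts and 34.0 CPM in that with fewest (3 counts, counting error only). All 10 glial markers tested were higher in HA T0 than in IgG T0, and 8 of 10 in HA T3 than in IgG T3. All 10 smooth muscle markers were lower with HA at both times. By the same test, 16.0% of all genes were higher with HA and 14.4% lower at T0, and 11.8% and 10.2% at T3. Smooth muscle markers still made up 1.81 to 3.58% of the counts of the HA libraries, so the HA libraries also held RNA of other cells. In such bulk libraries, a change in the number of cells of a type and a change in the RNA of each cell cannot be told apart.

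Mt1 (ENSMUSG00000031765) lies on chromosome 8 from 94179082 to 94180327 and Mt2 (ENSMUSG00000031762) from 94172664 to 94173568, both on the plus strand (GRCm38, GENCODE M21), with 5513 bases between them. Mt3 and Mt4 lie upstream of Mt2 in the same cluster. Mtf1 lies apart from them on chromosome 4, from 124802104 to 124849800. The promoters of the metallothionein pair are shown because they carry the element through which MTF1 acts. Each run is the RefSeq sequence (GRCm38.p6, plus strand) from 250 bases before to 30 bases after the annotated start site, chr8:94178839-94179118 for Mt1 and chr8:94172368-94172647 for Mt2, with every match to the MRE core TGCACNC or TGCGCNC on either strand in capitals.
Mt1 promoter: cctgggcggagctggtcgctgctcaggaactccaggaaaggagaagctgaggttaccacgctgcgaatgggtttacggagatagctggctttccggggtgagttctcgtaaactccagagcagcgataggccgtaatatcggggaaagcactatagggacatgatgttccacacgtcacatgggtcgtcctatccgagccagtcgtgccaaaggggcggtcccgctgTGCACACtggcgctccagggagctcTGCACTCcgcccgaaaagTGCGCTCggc
Mt2 promoter: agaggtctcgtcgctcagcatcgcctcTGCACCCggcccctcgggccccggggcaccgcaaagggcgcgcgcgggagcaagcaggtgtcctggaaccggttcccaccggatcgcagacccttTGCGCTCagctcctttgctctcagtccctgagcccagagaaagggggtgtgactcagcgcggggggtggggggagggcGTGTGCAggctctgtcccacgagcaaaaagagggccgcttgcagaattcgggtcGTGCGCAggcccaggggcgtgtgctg

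The Mt1 window held 3 matches to the MRE core and the Mt2 window held 4. Of 32851 promoter windows of the same length in the RefSeq table, 24.1% held at least 1 match, 1.73% at least 3 and 0.405% at least 4. In Mt1 the matches began at positions -23, 3 and 21 (the start site being 1 and the base before it -1), all on the plus strand. In Mt2 they began at -223 and -128 on the plus strand and at -50 and 5 on the minus strand. Mt3 and Mtf1 had no match in their windows, and Mt4 and the zinc exporter gene Slc30a1, a classical MTF1 target, had 1 each. Mt2 further held the letters TGACNNNGC, the core of the antioxidant response element, at -79 (found in 11.5% of windows, without overlap with an MRE core). Mt1 held 3 copies of the GC box GGGCGG, which 34.7% of windows held at least once, and the copy that began at 9 shared a base with an MRE core. Neither window held the E-box CACGTG (6.79% of windows) or the STAT letters TTCNNNGAA (7.83%). Mt1 has 3 annotated transcripts and Mt2 has 2 (GENCODE M21), and each window surrounds 1 start site. Sequence beyond that window, or around another start site, was not searched. A motif without a match here may therefore lie outside the window. Such matches describe letters in a window and are not measured binding sites.

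**Figure D1:**
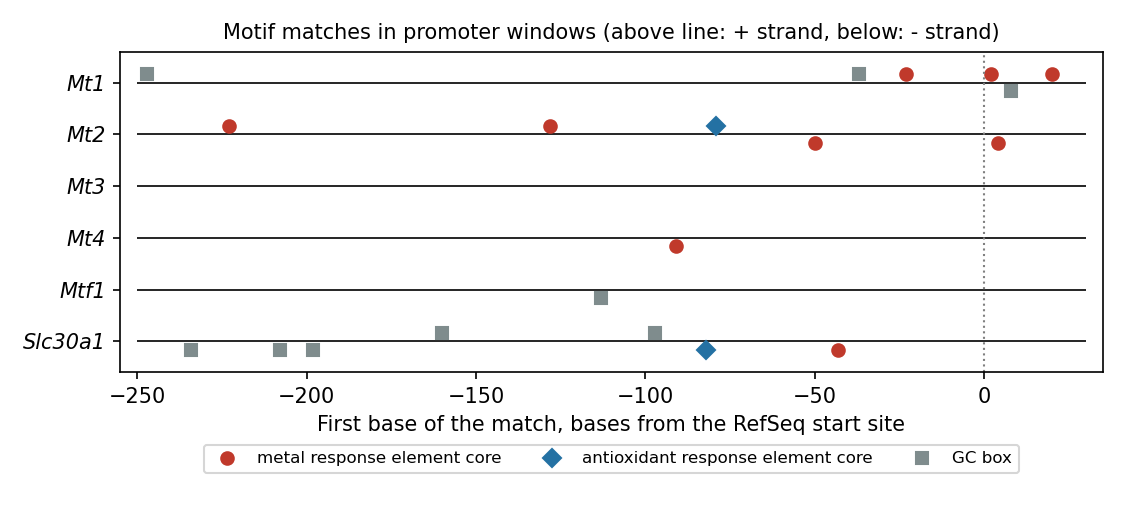
Matches to 3 motifs in the promoter windows of the 4 metallothionein genes, Mtf1 and Slc30a1. The horizontal axis gives the first base of each match in bases from the RefSeq start site (0, dotted line), and marks above a line are on the plus strand and below it on the minus strand. Mt1 and Mt2 hold 3 and 4 MRE cores, Mt3 and Mtf1 none.

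Mt1 was already a well-detected gene in naive muscularis. It stood at 672, 603 and 706 CPM in the 3 HA T0 libraries (660.3 ± 52.6, SD, n = 3) and at 211, 254 and 305 CPM in IgG T0 (257 ± 46.8). After injury it stood at 19552, 20165 and 22125 CPM in HA T3 (20614 ± 1344) and at 7636, 9498 and 9492 CPM in IgG T3 (8875 ± 1073). The 4 groups did not overlap, and their order from high to low was HA T3, IgG T3, HA T0 and IgG T0. The lowest HA T3 library was 27.7 times the highest HA T0 library, and the lowest IgG T3 library was 25.1 times the highest IgG T0 library. The ratio of the group means was 31.2 with HA and 34.6 with IgG.

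Mt2 lay below Mt1 in every T0 library and above it in every HA T3 library. It stood at 407, 217 and 261 CPM in HA T0 (295 ± 99.7, n = 3) and at 41.2, 51.4 and 83.0 CPM in IgG T0 (58.5 ± 21.8). At 3 h it stood at 24999, 26132 and 28272 CPM in HA T3 (26468 ± 1662) and at 5594, 9269.5 and 6824 CPM in IgG T3 (7229 ± 1871). Again no groups overlapped, and the order was the same as for Mt1. The lowest T3 library was 61.4 times the highest T0 library with HA and 67.4 times with IgG. The ratio of the group means was 89.7 with HA and 124 with IgG.

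Mtf1, the regulator, had few counts in every library and was close to the limit of detection with IgG. It had 23, 21 and 35 counts in HA T0, which is 8.83, 11.7 and 12.2 CPM (10.9 ± 1.82, n = 3), and 11, 11 and 6 counts in HA T3, which is 9.0, 7.36 and 4.67 CPM (7.01 ± 2.19). The groups overlapped, since the highest HA T3 library lay above the lowest HA T0 library. IgG T0 held 0, 7 and 8 counts (0, 12.0 and 6.20 CPM), and IgG T3 held 0, 1 and 3 counts (0, 10.9 and 12.1 CPM), all at or under the limit of 3 counts, so no fold is given for IgG T3. The window in which Mtf1 was counted overlaps that of 1110065P20Rik on the opposite strand, and whether counting was stranded is not stated. Its counts may therefore belong in part to either gene.

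**Figure D2:**
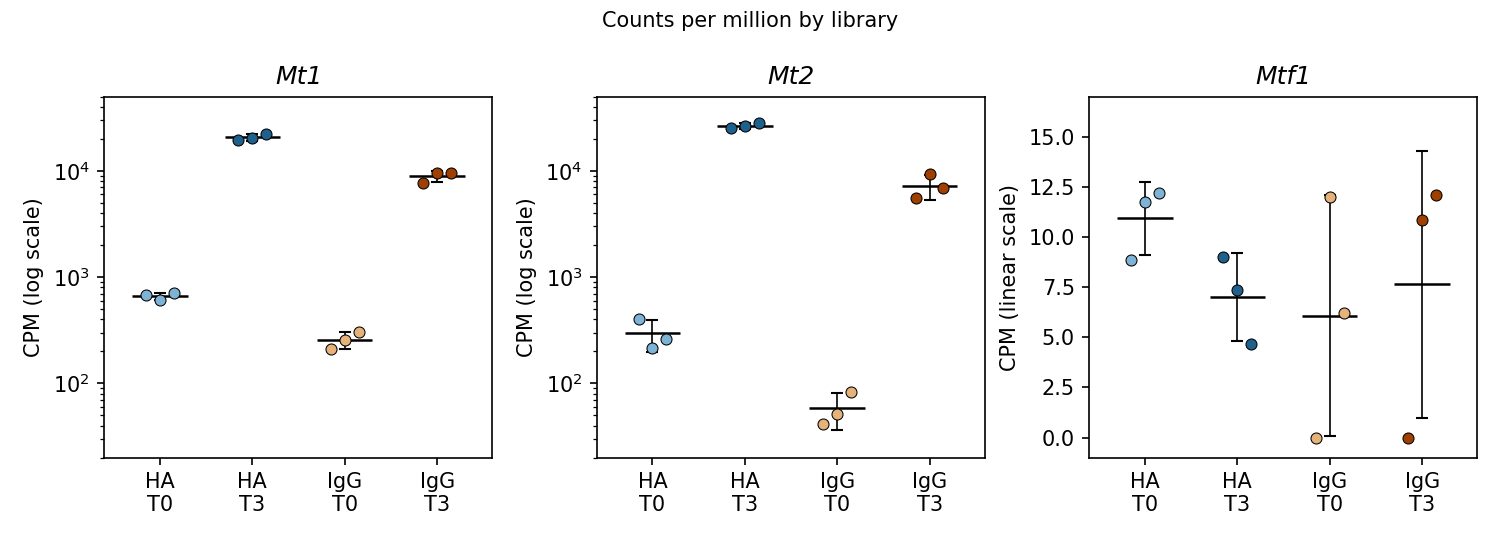
Counts scaled to a fixed library total (CPM) of Mt1, Mt2 (log scale) and Mtf1 (linear scale) in each of the 12 libraries, by antibody and time. Points are libraries, horizontal lines group means and bars 1 SD (n = 3). Mt1 and Mt2 lie at 5594 CPM or more in every T3 library and at 706 CPM or less in every T0 library, whereas the Mtf1 libraries overlap between groups.

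The transcripts of the metallothionein pair were a large share of the T3 libraries. Mt1 and Mt2 together made up 0.108, 0.0820 and 0.0967% of all counts in HA T0 and 4.46, 4.63 and 5.04% in HA T3. With IgG they made up 0.0252 to 0.0388% at T0 and 1.32 to 1.88% at T3. The mean share was 49.3 times higher at T3 than at T0 with HA and 51.1 times with IgG. By count (UMI tags, not scaled for length), Mt2 was the highest and Mt1 the second highest of all genes in each of the 3 HA T3 libraries. In HA T0, Mt1 held positions 218 to 259 and Mt2 positions 441 to 883. In IgG T3, Mt1 held positions 4 to 7 and Mt2 positions 5 to 14, from 460 to 784 and 2012 to 3949 in IgG T0.

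The ratio of Mt2 to Mt1 counts was higher at T3 than at T0 in both pull-downs, without overlap. It was 0.606, 0.360 and 0.370 in HA T0 (0.445 ± 0.140, n = 3) and 1.28, 1.30 and 1.28 in HA T3 (1.28 ± 0.0102). It was 0.195, 0.203 and 0.272 in IgG T0 (0.223 ± 0.0425) and 0.733, 0.976 and 0.719 in IgG T3 (0.809 ± 0.145). Mt1 was thus the more counted of the pair in all 6 T0 libraries and in all 3 IgG T3 libraries, and Mt2 in all 3 HA T3 libraries. The mean ratio at T3 was 2.88 times that at T0 with HA and 3.62 times with IgG. The spread between libraries was smallest in HA T3, in which each gene rested on at least 23888 counts, whereas Mt2 in IgG T0 rested on 16 to 107.

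**Figure D3:**
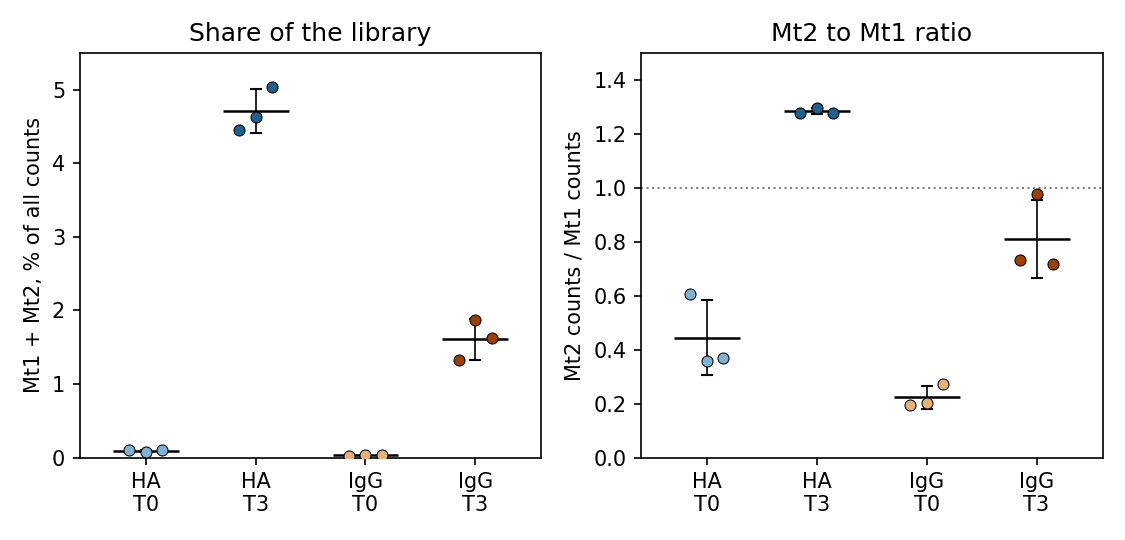
Left, Mt1 and Mt2 as a percentage of all counts in each library; right, the ratio of Mt2 to Mt1 counts, with a dotted line at equal counts. Points are libraries, lines group means and bars 1 SD (n = 3). The share is 4.46 to 5.04% in HA T3 against at most 0.108% in HA T0, and the ratio exceeds 1 in HA T3 and in no other group.

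Fitted across all genes (edgeR quasi-likelihood), the change from T0 to T3 with HA was 5.23 ± 0.21 on the log2 scale for Mt1, 6.74 ± 0.28 for Mt2 and -0.37 ± 0.37 for Mtf1 (± SE, 3 against 3 libraries). These values are a description, since Mt1, Mt2 and Mtf1 were chosen by their levels in the groups compared. Of 9441 genes tested in this comparison, 33.8% changed at an adjusted p below 0.05, 18.7% upwards and 15.1% downwards. By size of change Mt2 was in position 11 and Mt1 in position 32 of these genes. With library totals in place of TMM scaling the median over all genes moved from -0.02 to -0.29 and the share of higher genes among those called from 55.4 to 31.1%, and the values became 4.96 for Mt1 and 6.48 for Mt2. With IgG the change was 5.08 ± 0.35 for Mt1 and 6.87 ± 0.43 for Mt2, in positions 15 and 6 of 5219 genes tested, of which 5.46% changed (4.43% upwards and 1.03% downwards). Mtf1 did not pass the filter on low counts in the IgG comparison.

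Both metallothioneins were more abundant with HA than with IgG. At T0 the difference was 1.33 ± 0.19 on the log2 scale for Mt1 and 2.25 ± 0.31 for Mt2, and at T3 it was 1.31 ± 0.25 and 1.98 ± 0.26. The background was 30.3% of genes called at T0 (16.0% higher with HA and 14.4% lower) and 21.9% at T3 (11.8% higher and 10.2% lower). Within animals, whose HA and IgG libraries came from a single lysate, Mt1 was 3.18, 2.38 and 2.32 times higher with HA in T0 mice 1, 2 and 4 and 2.56, 2.12 and 2.33 times in T3 mice 1, 3 and 4. Mt2 was 9.88, 4.22 and 3.15 times higher in the same T0 mice and 4.47, 2.82 and 4.14 times in the T3 mice. Both genes were therefore higher with HA in 6 of 6 animals. For Mtf1 the difference at T0 was 0.69 ± 0.55, and lay between 0.38 without IgG T0 mouse 1 and 1.26 without IgG T0 mouse 2.

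The 10 glial markers gave a median difference between HA and IgG of 4.24 at T0 and 2.88 at T3 (log2), above the values of Mt1 and Mt2, while the 10 smooth muscle markers gave -1.45 and -1.97. Of 4 markers of interstitial cells of Cajal, 3 were likewise higher with HA at T0 (median 3.45), as were all 3 tested at T3 (median 1.63). Over all genes, 16.0% were higher with HA at T0 and 11.8% at T3. Summed, the glial markers made up 0.392 to 0.478% of counts in HA T0, 0.467 to 0.539% in HA T3, 0.0183 to 0.0249% in IgG T0 and 0.0229 to 0.106% in IgG T3. Mt1 and Mt2 in the IgG libraries thus stood closer to the HA libraries than the glial markers did. The smooth muscle sum was 7.37 to 9.03% in IgG T0 and 5.65 to 8.84% in IgG T3. The 3 markers of neutrophils and monocytes in the files, of 8 listed, summed to 0.000523 to 0.00119% in HA T0 and 0.00214 to 0.0116% in HA T3. With IgG they summed to 0.00178 to 0.00258% and 0.00435 to 0.0238%. In mean CPM with HA, S100a8 (0.128 and 7.52) and S100a9 (0.686 and 44.5) were higher at T3, and Plac8 (8.62 and 2.38) was lower. The 9 macrophage markers summed to 0.0430 to 0.0754% in HA T0 and 0.0200 to 0.0343% in HA T3. With time, all 5 mesothelial markers tested fell with HA (median -3.02) and 4 of 5 with IgG (median -3.04). Likewise, 4 of 6 fibroblast markers fell with HA (median -1.26) and 2 of 6 with IgG (median -0.67). The shares of all genes that fell were 15.1% with HA and 1.03% with IgG. The summed markers of interstitial cells of Cajal were 0.301 to 0.407% in HA T0 and 0.152 to 0.211% in HA T3. The part of these other cells in the Mt1 and Mt2 values was not tested.

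The interaction of antibody and time gave the T0 to T3 change with HA less that with IgG, on the log2 scale. It was 0.24 ± 0.34 for Mt1, -0.02 ± 0.38 for Mt2 and -0.76 ± 1.06 for Mtf1 (± SE). The Mtf1 value rests on 0, 1 and 3 counts in the IgG T3 libraries, at or under the limit of 3 counts. It can therefore not be read as a change. The median over all genes was 0.18. Because Mt1, Mt2 and Mtf1 were chosen by their levels in these groups, their values are a description. They cannot decide whether both pull-downs changed alike. Without IgG T3 mouse 4 the value of Mtf1 turned to 0.02, and it lay at -1.34 without IgG T0 mouse 2. With library totals in place of TMM the value of Mt1 turned to -0.14 and the median to -0.18. In this comparison 34 of 10314 genes (0.330%, of which 0.301% with a larger and 0.0291% with a smaller value for HA) passed an adjusted p of 0.05 and 1081 had an unadjusted p below 0.05. When the animal entered the fit as a block, 158 passed.

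Mt3, which encodes a further zinc- and copper-binding metallothionein, rose with HA. It stood at 36.9, 28.5 and 17.4 CPM in HA T0 and at 64.7, 59.5 and 86.4 CPM in HA T3, without overlap, a change of 1.61 ± 0.27 (edgeR adjusted p = 0.000195). In IgG it was at 48.9, 48.0 and 58.9 CPM at T0 and at 56.7, 32.6 and 76.5 CPM at T3, from only 5, 3 and 19 counts, with a fitted change of 0.18 ± 0.43 (adjusted p = 0.855). The difference between these changes was 1.49 ± 0.50 and did not pass correction (adjusted p = 0.256). Mt3 was lower in HA T0 than in IgG T0 by -0.95 ± 0.31 (adjusted p = 0.0334), opposite in sign to Mt1 and Mt2, a call that was lost without HA T0 mouse 2 or 4 or IgG T0 mouse 4 (adjusted p = 0.0748, 0.137 and 0.142). Mt4, known from stratified epithelium, had 1, 2 and 6 counts in the HA T3 libraries and 0 in the other 9, and was not tested.

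Of 7 other genes in the files that are reported as MTF1 targets, 6 were tested with HA, 2 rose and none fell, with a median change of 0.47 against -0.02 over all genes. These 2 of 6 are near the 33.8% of all genes called in this comparison. Pgf, which encodes placental growth factor, rose by 2.18 ± 0.38 (adjusted p = 0.000175), although from 2.69 to 5.03 CPM at T0. Csrp1, a cysteine-rich LIM protein also typical of smooth muscle, was at the threshold (0.49 ± 0.19, adjusted p = 0.0496) and missed it in 8 of 13 alternatives, among them without HA T0 mouse 1 or 4 or HA T3 mouse 1 or 4 (adjusted p = 0.0738, 0.169, 0.1 and 0.198). Slc30a1, whose product exports zinc across the plasma membrane, stood at 33.4, 19.0 and 30.3 CPM in HA T0 and at 17.2, 22.7 and 31.1 CPM in HA T3. Its change was 0.03 ± 0.29 (adjusted p = 0.942), its sign turned with library totals as scaling (-0.24), and its groups overlapped. Ndrg1, Gclc and Sepw1 had changes of 0.44, 0.53 and 0.22 (adjusted p = 0.061, 0.0805 and 0.359), and without HA T0 mouse 4 that of Ndrg1 passed (adjusted p = 0.015). With IgG, 1 of 4 tested genes passed: Gclc, the catalytic subunit of glutamate-cysteine ligase in glutathione synthesis, rose by 2.4 ± 0.41 (adjusted p = 0.00217). The interaction for Gclc was -1.79 ± 0.46 and did not pass correction (edgeR adjusted p = 0.102).

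The zinc transporter genes tested with HA had fitted changes between -1.63 and 1.81. Their calls, 1 of 6 exporters and 3 of 9 importers, did not exceed the 33.8% of all genes called. Among the exporters of the Slc30 family, which move zinc out of the cytoplasm, 6 of 6 in the files were tested with HA, none rose and 1 fell (median -0.10). The gene that fell was Slc30a6, of the Golgi, by -1.63 ± 0.34 (adjusted p = 0.000923), from 19.0 to 22.6 CPM in HA T0 to 4.68 to 6.55 CPM in HA T3. Among the importers of the Slc39 family, 9 of 12 in the files were tested, 2 rose and 1 fell (median -0.28). Slc39a14, a plasma membrane importer of zinc and non-transferrin iron known to respond to IL-6 in liver, rose by 1.81 ± 0.21 (adjusted p = 1.67e-06), from 38.4, 30.7 and 38.3 CPM to 79.4, 125 and 109 CPM. Of its relatives at the plasma membrane, Slc39a1 rose by 0.86 ± 0.19 (adjusted p = 0.00159) and Slc39a3 fell by 0.93 on the log2 scale (adjusted p = 0.00187). With IgG, 1 exporter and 5 importers were tested and none passed at an adjusted p of 0.05, Slc39a14 having a change of 1.25 ± 0.51 (adjusted p = 0.181). The interaction for Slc39a14 was 0.63 ± 0.52 (adjusted p = 0.725). At T0, Slc30a6 was higher with HA than with IgG (1.38 ± 0.39, adjusted p = 0.0161, and 0.0546 without IgG T0 mouse 2), and Slc30a4 (-1.78 ± 0.45, adjusted p = 0.0089) and Slc39a8 (-1.55 ± 0.35, adjusted p = 0.00389) were lower.

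**Figure D4:**
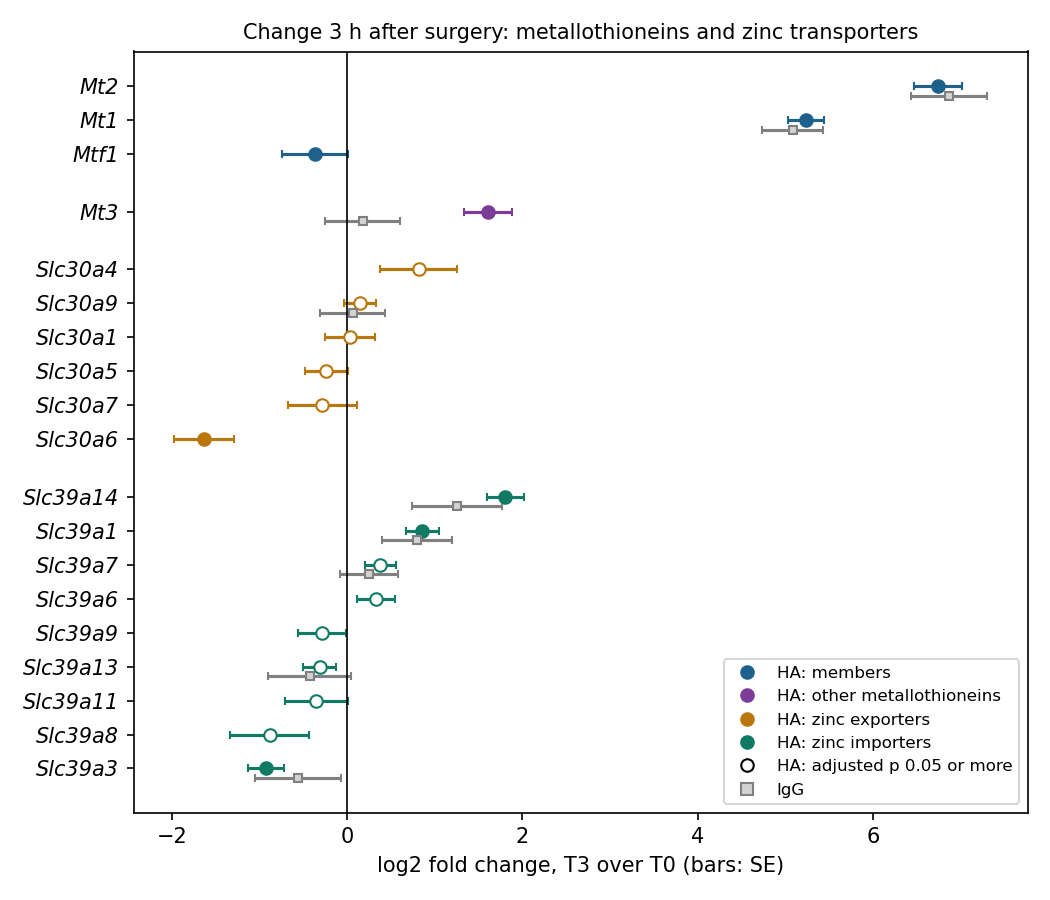
Log2 fold change from T0 to T3 with its SE for Mt1, Mt2, Mtf1, Mt3 and the zinc transporter genes tested. Circles are HA, with open circles at an adjusted p of 0.05 or more and the 3 described genes filled without a test; grey squares are IgG where the gene was tested. Mt1 and Mt2 lie at 5.08 or more with both antibodies and every zinc transporter between -1.63 and 1.81.

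Copper and iron genes were read against the same shares over all genes with HA, 18.7% higher and 15.1% lower. Of 10 tested copper genes, 2 rose and 2 fell with HA (median -0.10): Cp, the ferroxidase ceruloplasmin, rose by 1.59 ± 0.40 (adjusted p = 0.00446), the copper importer Slc31a1 was at the threshold (0.67 ± 0.26, adjusted p = 0.0487, and 0.0502 to 0.243 in the 13 alternatives), and Slc31a2 (-0.99 ± 0.23) and the copper chaperone Atox1 (-0.65 ± 0.19) fell (adjusted p = 0.00234 and 0.0104). The call of Atox1 was lost without HA T3 mouse 1 (adjusted p = 0.0773) and when the 12 libraries were fitted together (adjusted p = 0.0539). None of the 5 copper genes tested with IgG passed. Of 11 tested iron genes, 6 rose with HA and none fell (median 1.01). The largest changes were those of Hmox1, the heme-degrading oxygenase, at 4.46 ± 0.29 (adjusted p = 2.07e-10) and of Lcn2, a siderophore binder, at 3.33 ± 0.45 (adjusted p = 9.62e-06). Tfrc (the transferrin receptor), Slc11a2 (an iron importer), Pcbp2 (an iron chaperone) and Ftl1 (the ferritin light chain) also rose, by 0.84 to 1.64, but Slc11a2, Pcbp2 and Ftl1 lost the call when the 12 libraries were fitted together (adjusted p = 0.0796, 0.222 and 0.0511), and Tfrc without HA T3 mouse 1 and Pcbp2 without HA T3 mouse 4 (adjusted p = 0.052 each). Fth1, with a change of -0.91 ± 0.34 with HA (adjusted p = 0.0766), was called lower without HA T3 mouse 3 (-1.35, adjusted p = 0.00027), with library totals (-1.17, adjusted p = 0.0407) and with the replicate number as a block (-1.45, adjusted p = 0.000367). With IgG, Hmox1 rose (3.94 ± 0.51, adjusted p = 0.000268) and Fth1, the ferritin heavy chain, fell (-1.45 ± 0.35, adjusted p = 0.0258) among 7 genes tested. The call of Fth1 was lost when any IgG library but that of T3 mouse 3 was left out (adjusted p = 0.0516 to 0.094).

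Genes of the other known inducers of metallothioneins were read beside these values. Of 10 glucocorticoid-induced genes tested with HA, 8 rose and none fell (median 1.93), and with IgG 4 of 6. Those with the smallest p were Errfi1 (4.24 ± 0.27, adjusted p = 1.49e-10), a feedback inhibitor of EGF receptors, the kinase Sgk1 (3.42 ± 0.31, adjusted p = 2.9e-08) and the phosphatase Dusp1 (2.79 ± 0.25, adjusted p = 6.86e-08). The 2 genes not called with HA were Tsc22d3 and Pdk4. Tsc22d3 stood at 53.8 ± 9.77 CPM in HA T0 and 39.6 ± 7.57 in HA T3 (± SD). Pdk4 stood at 22.1 ± 1.75 and 20.3 ± 2.01 CPM. All 11 tested genes of the IL-6 and STAT3 list rose with HA (median 3.01), and 6 of 8 with IgG. They were led by Socs3 (4.78 ± 0.21, adjusted p = 7.13e-13), the inhibitor induced by STAT3, by Stat3 itself (2.79 ± 0.18, adjusted p = 1.67e-10) and by the cytokine Lif (6.90 ± 0.38, adjusted p = 1.47e-09). Of 7 oxidative stress genes tested with HA, 3 rose (median 0.97), and 4 of 5 with IgG. Srxn1, the sulfiredoxin that repairs oxidised peroxiredoxins, rose by 5.00 ± 0.21 (adjusted p = 4.94e-13), Hmox1 by 4.46 and Txnrd1, thioredoxin reductase 1, by 2.13 ± 0.19 (adjusted p = 3.46e-08). The same background of 18.7% of genes higher with HA and 4.43% with IgG applies to these counts.

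Of 9 genes for factors reported at metallothionein promoters, all tested with HA, 1 rose and 2 fell (median -0.05), near the 33.8% of all genes called. Stat3 rose as given above, and with IgG by 2.28 ± 0.35 (adjusted p = 0.00105). Nr3c1, the glucocorticoid receptor, fell from 53.0, 60.3 and 73.2 CPM to 24.6, 27.4 and 21.8 CPM, a change of -1.06 ± 0.22 (adjusted p = 0.00111). Ctcf, the insulator protein, fell by 0.81 on the log2 scale (adjusted p = 0.0306), a call lost in 5 of 13 alternatives, among them without HA T0 mouse 1 or HA T3 mouse 1 or 4 (adjusted p = 0.0889, 0.117 and 0.102). Usf1, Usf2, Sp1, Nfe2l2 and Ep300 had changes between -0.22 and 0.47 with adjusted p of 0.307 or more.

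The genes whose levels followed those of Mt1 and Mt2 most closely over the 12 libraries were found by Pearson r of log2 CPM among 10313 genes, as a description in which all points share the contrast of T3 with T0. For Mt1 they were Mt2 (0.997), Csrnp1 (0.994), Pqlc1 (0.989), Cdkn1a (0.989) and Gadd45b (0.988). For Mt2 they were Mt1, Csrnp1 (0.988), Pqlc1 (0.987), Cdkn1a (0.986) and Ccl2 (0.984). Csrnp1, for instance, stood at 17.1 ± 1.20 CPM in HA T0, 957 ± 134 in HA T3, 7.73 ± 2.57 in IgG T0 and 486 ± 135 in IgG T3 (n = 3 each). For Mtf1 the closest were Mcrs1 (0.953), Zfp9 (0.933), Ccdc24 (0.928), Maf1 (0.918) and Map3k4 (0.903), with most of the spread between libraries set by IgG libraries with 0 to 8 counts of Mtf1. The r of Mtf1 was 0.117 with Mt1 and 0.137 with Mt2.

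Other genes within 100000 bases of the metallothionein cluster, a window chosen after the data were seen, were tested as well. Bbs2 (0.06, adjusted p = 0.876) and Nup93 (0.42, adjusted p = 0.255) gave no call with HA, and Mt3 was called as given above. Mt1 shared none of its 25-base words with any other gene and Mt2 shared 1.09% of them, so reads of the pair can be told apart. The counting window of Mt2 overlaps the annotated gene Gm45774 on the opposite strand, which is not a row of the count table.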

How the data were processed

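Ribosome-bound RNA of the small intestinal muscularis was immunoprecipitated with anti-HA or control IgG and sequenced as 3′ MARS-seq libraries. Per the labels, reads were trimmed (cutadapt), aligned by the authors to mm10 (STAR 2.4.2a) and, where alignment was unique, counted as UMIs (HTSeq) from 1000 bases before to 100 bases after each 3′ end. The deposited values are raw UMI counts per gene, neither normalised nor scaled for length.

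Here CPM were computed from library totals. Comparisons used edgeR 4.0.16 (R 4.3.3) with TMM scaling, filterByExpr, the robust quasi-likelihood F-test and Benjamini-Hochberg adjustment over all genes tested, fitted to the groups compared. An adjusted p below 0.05 was a call. DESeq2 1.42.0 was an alternative. HA and IgG libraries of an animal came from a single lysate, and their deviations from group means correlated by 0.27 (all 3 animals) at T0 and 0.09 to 0.16 at T3. The main fits took the HA and IgG libraries of an animal as separate, so their p-values measure the spread between libraries within groups. Labels state no litter or pool, so a batch that goes with time could not be told apart from time.

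The genes described and all lists were chosen with earlier results of these data known. All genes of the metal and promoter factor lists could be named, and of the 3 inducer lists the 3 genes with the smallest p with HA. The 2 glucocorticoid-induced genes without a call with HA were named as well.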

Additional observations from a re-analysis of the deposited data

Results flagged for a closer look

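With 3 libraries in each group, no library could be called an outlier. Of the list genes named here, 1 passed correction in the interaction of antibody and time. The others are not thereby shown to change alike, since the IgG T3 libraries held only 88136 to 248522 counts. Srxn1 rose from 79.9, 85.5 and 81.5 CPM to 1956, 2007 and 2607 CPM with HA and from 59.2, 44.6 and 54.3 CPM to 431, 228 and 177 CPM with IgG. The difference between the changes was 2.79 ± 0.39 on the log2 scale (edgeR interaction, adjusted p = 0.000716, and 1.26e-08 to 0.00732 over the 18 alternatives).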

How the results depend on the processing

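Each value was recomputed with RLE scaling, library totals, no filter or a filter of 5 counts in 1 library, DESeq2, 1 fit over the 12 libraries, a replicate block and with each library left out. The log2 changes of Mt1, Mt2 and Mtf1 moved by less than the spread between libraries in 176 of 184 recomputed values. The Mt1 change with HA moved to 4.96 with library totals. The Mt1 difference between HA T3 and IgG T3 moved to 1.564 without a filter and 1.589 with the 12 libraries fitted together, and lay between 1.224 and 1.538 with 1 library left out (highest without IgG T3 mouse 4), that of Mt2 between 1.893 and 2.259 (highest without IgG T3 mouse 3). The interaction moved to -0.1374 for Mt1 with library totals, and with 1 library left out lay between 0.03184 and 0.3303 for Mt1 and between -0.459 and 0.2748 for Mt2 (both lowest without IgG T0 mouse 4). For Mtf1, values with 1 library left out lay between -0.5439 and -0.149 with HA, 0.3786 and 1.263 between HA T0 and IgG T0, and -1.342 and 0.02427 in the interaction. The interaction of Mtf1 rests on IgG T3 libraries with 0, 1 and 3 counts. With TMM library sizes, HA T3 held 24249 CPM of Mt1 and 31135 CPM of Mt2. The other levels and the Mt2 to Mt1 ratios moved by less than 1 SD.

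The number of genes called with IgG between times was 519 without a filter and 705 with the 12 libraries fitted together (main value 285), and 162 to 334 with 1 library left out (162, 167 and 181 without IgG T0 mouse 2, IgG T0 mouse 4 and IgG T3 mouse 4). The number called between HA T3 and IgG T3 (1578) was 849 to 1977 with 1 library left out (849, 1019 and 971 without HA T3 mouse 4, 3 and 1, and 958 without IgG T3 mouse 4). The number called in the interaction (34) was 20 with RLE scaling, 8 with library totals, 83 with DESeq2, 158 with the replicate block of animals, and 5 to 95 with 1 library left out (5 without HA T3 mouse 4, 95 without IgG T3 mouse 4). The replicate block changed no other count between HA and IgG by over 1.5 times. Numbers shared between T0 and T3 belong to different mice (deviations correlated by 0.01 to 0.17), and with that number as a block 3434 genes were called with HA and 289 with IgG. With the 12 libraries fitted together the share of higher genes among the calls was 69.0% between HA T3 and IgG T3 (53.6% in the fit of those groups) and 63.1% between the IgG times (81.1%).

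Of 708 recomputed values of 53 single results of list genes, 655 kept direction and call. The sign turned for Slc30a1 with HA (-0.2367 with library totals, -0.1425 with the replicate block, and from -0.2033 without HA T3 mouse 4 and -0.1565 without HA T0 mouse 2 to 0.2326 without HA T3 mouse 1), for Sepw1 with HA (-0.04028 with library totals) and for Mt3 with IgG (from -0.3492 without IgG T3 mouse 4 to 0.4048 without IgG T3 mouse 3), none of them a call. The cause of these changes was not tested. With IgG, Mtf1 had at most 8 counts in a library and did not pass the filter on low counts between times.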
